A study of Camelina sativa with 12 samples.

Results

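Of the 49932 genes in the expression table of *Camelina sativa* roots and shoots, 155 were high in salt-treated shoots while their level in salt-treated roots stayed near that of control roots. They were chosen by the group means of all 4 groups. Each had a mean of at least 5 CPM in both control roots and control shoots. CPM here are read counts that the authors scaled by library size and normalized further, and the library totals still differ. The mean in salt-treated shoots was at least 3 times that in control shoots. The mean in salt-treated roots was between 0.67 and 1.5 times that in control roots. The first condition left 27688 genes, and 680 of these met the shoot condition. Of the 680 genes, 510 were above the root band, 15 were below it and 155 were inside it.

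*C. sativa* is an oilseed crop of the mustard family with 3 closely related sub-genomes, so that most Arabidopsis genes have several camelina copies. All plants were line DH55, a doubled haploid, so the results describe 1 genotype. The 4 groups were salt-treated shoots, control shoots, salt-treated roots and control roots, with 3 libraries each. Salt-treated plants were watered with 192 mM NaCl, which has an electrical conductivity of 15 dS/m, from day 7 after sowing by the sample labels, and control plants received tap water. The study's RNA methods also give 21 days of salt at an age of 28 days. Its methods for growing the plants give a later start of salt, and this conflict could not be settled here. Whole shoots and roots were harvested at 28 days, after 21 days of salt and before bolting, from plants in potting mixture.

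The 155 genes bear on how shoots and roots divide the work under salinity. Sodium that enters with the water collects in leaves, and plant cells balance it with compatible solutes, small molecules such as proline, myo-inositol and raffinose that do not disturb enzymes. Abscisic acid (ABA) carries the water deficit signal, and dehydrins are disordered proteins that protect membranes and enzymes as water is lost.

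Names were available for 44 of the 155 genes, from the annotation sheet of genes up-regulated in shoots that accompanies the study. That sheet holds genes selected on these same libraries and is used here in a shortened form, so the names show which functions occur among the 155 genes and not how common they are. The 44 genes matched 36 Arabidopsis genes, and 8 of those were matched by a pair of camelina genes. The other 111 genes had no name in the sources used here. Further copies described below were also found through the study's annotation. A copy that did not change with salt, or that only the study's text names, could therefore be missing.

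As a check of organ identity, 3 Rubisco small chain genes and a chlorophyll-binding protein gene summed to between 9646 and 12146 CPM in salt-treated shoots and between 18015 and 19831 CPM in control shoots. The same sum was between 75 and 201 CPM in salt-treated roots and between 12 and 29 CPM in control roots, so it was low in roots and higher there with salt. Of 4 root marker genes 1 was in the table, Ethylene Insensitive Root 1, an auxin efflux carrier, at 1 to 2 CPM in salt-treated shoots, 1 CPM in control shoots, 4 CPM in each salt-treated root library and 11 to 18 CPM in control roots. The part of these shifts in the results was not tested. In whole organs, a change in RNA per cell cannot be told apart from a change in the share of a cell type. The values of a shoot library summed to between 1077479 and 1117956 and those of a root library to between 882288 and 938888, and the read depth behind them is unknown.

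The median of the 155 genes was 39.7 CPM in salt-treated shoots, against 9.67 CPM in control shoots. In salt-treated roots their median was 17.7 CPM, against 15.0 CPM in control roots. The median ratio of means in shoots was 3.6 (quartiles 3.19 and 4.33, highest 20.7). It was under 4 in 100 genes, 5 or more in 27 and 10 or more in 6. The group therefore sits mostly just above the limit of 3, with a short tail of strongly raised genes.

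**Figure D1:**
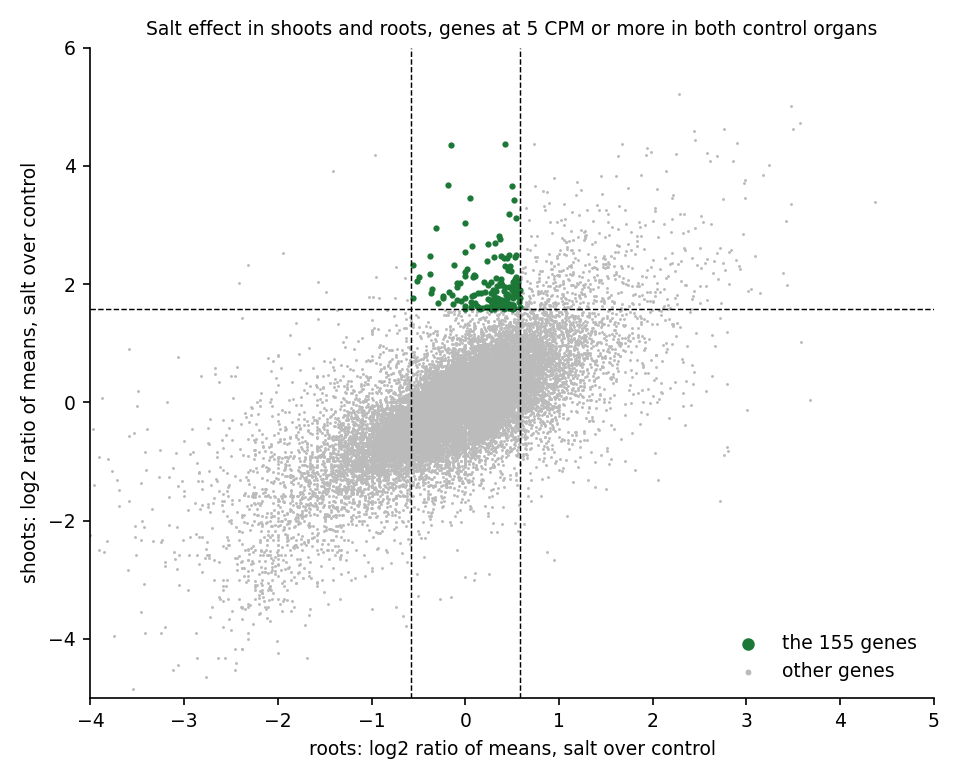
Log2 ratio of the salt mean over the control mean in roots (x axis) and in shoots (y axis) for the genes with at least 5 CPM in both control organs, with the 155 genes in green and dashed lines at the limits of 3, 0.67 and 1.5. The green points fill the upper middle box, most of them low in it and toward its right side, and the genes raised in both organs lie to the right of it.

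"Steady" was not flat. The ratio of means in roots was above 1 in 125 of the 155 genes (80.6%), below 1 in 23 and exactly 1 in 7, with a median of 1.27. Among the 19297 genes that met the control and root conditions alone, it was above 1 in 48.5%, with a median of 1.00. In 60 of the 155 genes every salt-treated root library was above every control root library, and in 4 every one was below, against 25.3% and 23.5% of all genes tested. Both ratios are part of the rule, so these counts are a description.

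The test was limma's moderated test on log2(CPM + 0.5) over 49928 genes, and a gene was called at an adjusted p of at most 0.05 with a change of more than 1 on the log2 scale. By these limits 154 of the 155 genes were called up in shoots, beside 10.8% of all genes tested, and 0 were called in roots, beside 16.1%. At an unadjusted limma p under 0.05, 51 of the 155 genes (32.9%) passed in roots, beside 52.7% of all genes, and the band of the rule leaves little room for a change of more than 1 on the log2 scale. Without the size limit, limma gave 31 of the 155 genes an adjusted p of at most 0.05 in roots, beside 46.0% of all genes, and 30 of them were higher and 1 was lower with salt. The difference between the salt effects (shoots minus roots) was called in 140 genes, beside 6.25% of all genes called with the larger effect in shoots. The rule used all of these contrasts, and nothing further is read from the counts.

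Salt-treated shoot libraries did not vary alike. Replicate 2 was the lowest of the 3 in 131 of the 155 genes (84.5%), against 31.7% of the genes with at least 5 CPM in both control organs. Among the 525 other genes that met the shoot condition it was lowest in 74.9%, so the low replicate was shared by most genes raised in shoots. Set against the control shoot mean, the 155 genes had a median of 4.0 in replicate 1, 2.65 in replicate 2 and 4.20 in replicate 3. Replicate 2 alone reached 3 times the control mean in 56 genes, replicate 1 in 149 and replicate 3 in 146, and all 3 libraries reached it in 46. The median coefficient of variation of the 155 genes was 30.5% in salt-treated shoots, against 10.7% in control shoots, 13.3% in salt-treated roots and 11.2% in control roots. Over the genes with at least 5 CPM in both control organs it was 10.8% in salt-treated shoots.

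**Figure D2:**
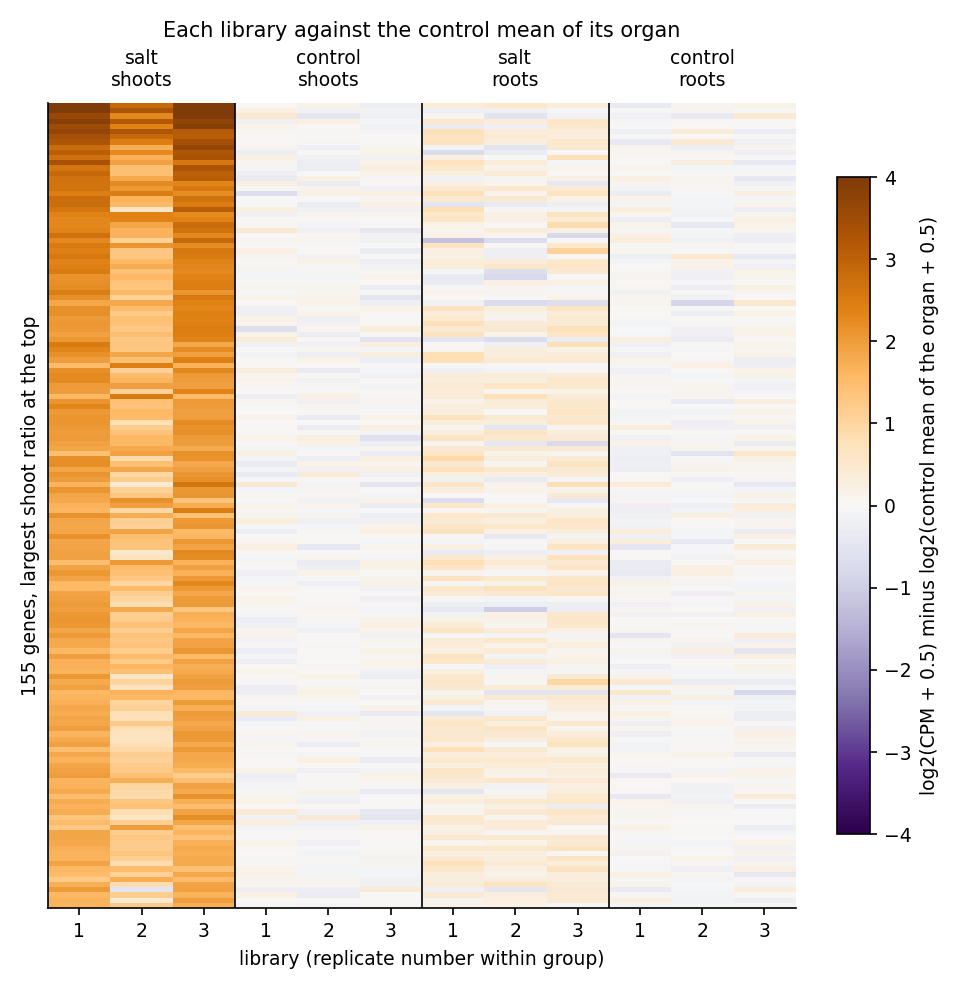
Each of the 155 genes (rows, largest shoot ratio at the top) in the 12 libraries (columns), as log2(CPM + 0.5) minus log2 of the control mean of the same organ + 0.5. The salt-treated shoot block is orange with a paler replicate 2, which is below the control mean in Csa07g063950 (4 CPM), and the salt-treated root block is faintly orange, as the root ratio above 1 in 125 genes shows.

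In 153 of the 155 genes every salt-treated shoot library was above every control shoot library, beside 25.2% of all genes. The rule asked for a ratio of 3 on these same libraries, so little overlap was possible and the count is a description. The 2 exceptions had no name and are identified here after their values were seen. Csa07g063950 had 26, 4 and 24 CPM in salt-treated shoots, against 5, 5 and 8 CPM in control shoots, and it was also the gene not called in shoots. Csa03g002550 had 28, 12 and 55 CPM in salt-treated shoots, against 12, 8 and 6 CPM in control shoots. Replicate 2 was below every control shoot library in Csa07g063950 and equal to the highest one in Csa03g002550. Without salt-treated shoot replicate 2, all 155 genes were called in shoots and for the difference between organs. The rule itself then found 206 genes, of which 152 were among the 155.

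Without salt, the 155 genes were more often higher in roots than other genes were. Control roots were above control shoots in 110 of them (71.0%), against 57.2% of the 27688 genes with both control means at 5 CPM or more. The median ratio of control roots over control shoots was 1.47, against 1.08. With limma, control roots were called above control shoots in 49 genes (31.6%), beside 15.3% of all genes tested and 8.18% of the 27688 genes. Control roots were called below control shoots in 10 genes (6.45%), beside 17.0% and 8.3%. This contrast is not in the rule, but it shares the control libraries with both ratios, and a low control shoot mean helps a gene to reach a shoot ratio of 3. In 78 of the 155 genes (50.3%) the control shoot mean was under 10 CPM, against 30.8% of the 27688 genes.

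With salt the order of the organs turned in many of them, which the rule in part fixes. Salt-treated shoots were above salt-treated roots in 136 of the 155 genes (87.7%), against 44.8% of the 27688 genes, and the median ratio of salt-treated shoots over salt-treated roots was 2.28, against 0.96. In 91 genes (58.7%) the mean was higher in roots without salt and higher in shoots with salt, against 12.3% of the 27688 genes. In 30 genes control roots were called above control shoots by limma and the mean with salt was higher in shoots. Shoot libraries had larger totals than root libraries, and these orders were taken without rescaling. In 19 genes roots kept the higher mean under both conditions. The most extreme of these was an unnamed gene with a mean of 163.0 CPM in salt-treated shoots and 41.3 CPM in control shoots, beside 828 CPM in salt-treated roots and 580 CPM in control roots.

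**Figure D3:**
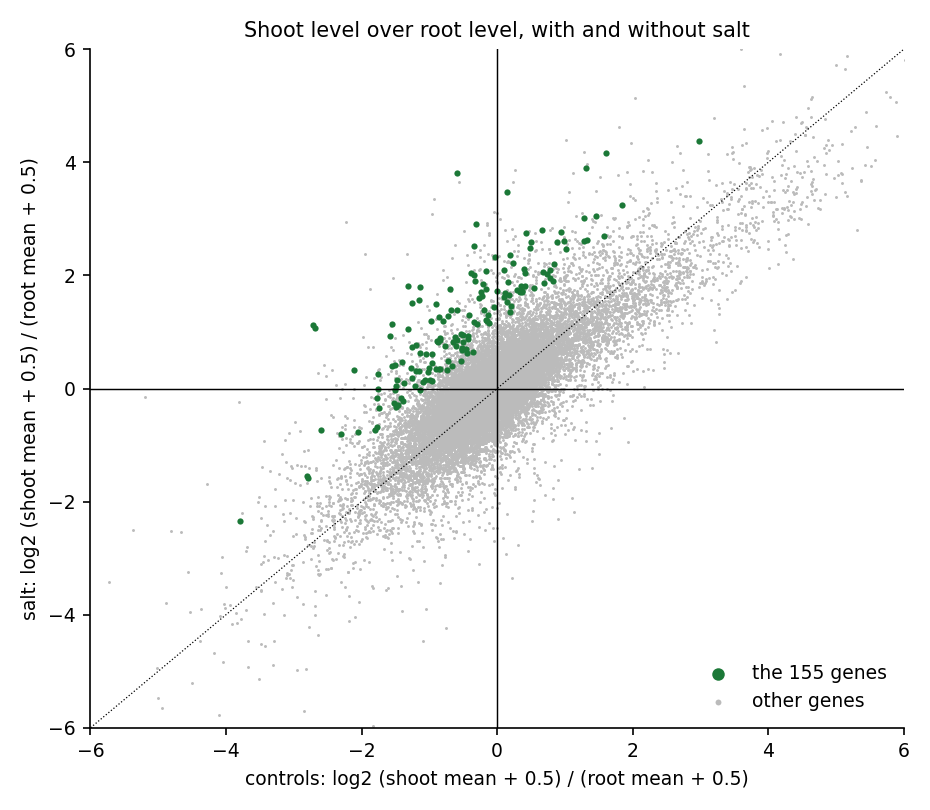
Log2 ratio of the shoot mean over the root mean, each with 0.5 added, in control plants (x axis) and in salt-treated plants (y axis), with the 155 genes in green over the 27688 genes with at least 5 CPM in both control organs. The 91 genes in the upper left quadrant were higher in roots without salt and higher in shoots with it, and all green points lie above the dotted line of equal ratios.

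Proline synthesis held some of the most strongly raised genes. Proline is made from glutamate in a short pathway that δ1-pyrroline-5-carboxylate synthase (P5CS) begins and δ1-pyrroline-5-carboxylate reductase (P5CR) completes. Csa06g030270, a P5CS2 gene, had 206, 128 and 184 CPM in salt-treated shoots, against 12, 16 and 13 CPM in control shoots, a ratio of means of 12.6. In roots the same gene had 50, 45 and 52 CPM with salt, against 33, 36 and 35 CPM in controls, a ratio of 1.41. Neither organ's groups overlapped. Control roots held 2.54 times the level of control shoots (limma adjusted p = 1.75e-05), in a contrast that shares the control libraries with the rule. The organ with less P5CS2 transcript without salt had more of it with salt, a turn that the rule in part favours.

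A second P5CS2 gene, Csa04g041940, behaved alike, with 132, 91 and 106 CPM in salt-treated shoots against 12 CPM in each control shoot library, a ratio of 9.14. It had 57, 48 and 44 CPM in salt-treated roots, against 35, 36 and 37 CPM in control roots. On the log2 scale the shoot change was 3.59 ± 0.16 (SE) for Csa06g030270 and 3.12 ± 0.13 for Csa04g041940, and the root change was 0.49 ± 0.16 and 0.45 ± 0.13. The third P5CS2 gene, Csa09g067680, lay outside the group because its root ratio was 1.68. It had 38, 24 and 33 CPM in salt-treated shoots, against 4, 5 and 6 CPM in control shoots, and 19, 16 and 17 CPM in salt-treated roots, against 9, 11 and 11 CPM in control roots. All 3 copies were listed by the sheet for their rise in shoots, so their shared shoot change was fixed by that selection. Their root ratios of 1.41, 1.38 and 1.68 lay on both sides of the limit of 1.5.

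Csa13g017630, the P5CR gene, had 90, 58 and 84 CPM in salt-treated shoots, against 14, 15 and 12 CPM in control shoots (ratio 5.66). It had 13, 14 and 13 CPM in salt-treated roots, against 9, 10 and 10 CPM in control roots. Unlike the P5CS2 genes, P5CR was not a root gene in controls, since control roots were at 0.71 times the level of control shoots. Both ends of the pathway were thus represented among the 155 genes.

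Other amino acid genes were the threonine aldolase 2 pair and an alanine aminotransferase. Threonine aldolase splits threonine into glycine and acetaldehyde. Csa15g005400 had 113, 55 and 107 CPM in salt-treated shoots, against 22, 24 and 21 CPM in control shoots, and Csa01g005230 had 77, 46 and 67 CPM against 17, 16 and 14 CPM. Their root ratios were 1.15 and 1.30, and control roots held 0.51 and 0.49 times the level of control shoots. Both thus had the higher mean in shoots before salt, by less than the limit for a call, and the gap widened with salt. AlaAT1 (Csa14g021540), which exchanges amino groups between alanine and glutamate, was among the most abundant named genes, with 203, 141 and 235 CPM in salt-treated shoots, against 58, 55 and 52 CPM in control shoots. In roots it had 68, 76 and 90 CPM with salt, against 92, 55 and 73 CPM without, and the groups overlapped. Of the 21 nitrogen and amino acid genes of the shoot sheet that were tested, which were chosen for their rise in shoots, 6 belonged to the 155 genes, and 3 were called up in roots. Of all 489 tested genes of that sheet, 44 belonged to the 155 genes, and 106 were called up in roots and 5 down. Over all 49928 genes tested, of which 155 formed the group, 8.22% were called up and 7.85% down in roots. These numbers stand behind each count of listed genes below.

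Sugar and cyclitol metabolism gave 5 genes. MIPS2 (Csa09g086550), myo-inositol-1-phosphate synthase, catalyses the committed step of inositol synthesis. It had 28, 27 and 27 CPM in salt-treated shoots, against 7, 7 and 8 CPM in control shoots, the tightest salt-treated shoot replicates of any gene named here, and 8 CPM in each salt-treated root library, against 5, 6 and 6 CPM in control roots. Its other copy, Csa16g043970, had 37, 23 and 46 CPM in salt-treated shoots, against 4, 4 and 6 CPM in control shoots, and a root ratio of 2.00, so it missed the group on its root level and on its control shoot mean of 4.67 CPM.

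Raffinose synthase joins galactose from galactinol, itself made from myo-inositol, to sucrose. Csa12g079610, annotated as SIP1, had 52, 47 and 33 CPM in salt-treated shoots, against 13, 14 and 12 CPM in control shoots (ratio 3.38), and 11, 7 and 12 CPM in salt-treated roots, against 16, 15 and 13 CPM in control roots. Its root ratio of 0.68 was the second lowest of the 155 genes, and every salt-treated root was below every control root. Its 2 other copies lay on opposite sides of the root band, and Csa10g047220 also missed the group on its control shoot mean of 2.67 CPM. Csa11g057610 had 32, 13 and 24 CPM in salt-treated shoots, against 6, 5 and 5 CPM in control shoots, and its root ratio of 0.64 was just under the band. Csa10g047220 had 71, 31 and 43 CPM in salt-treated shoots, against 3, 3 and 2 CPM in control shoots, and 36, 22 and 22 CPM in salt-treated roots, against 13, 11 and 12 CPM in control roots (log2 change 1.08 ± 0.28 SE with all libraries and 0.85 ± 0.29 without salt-treated root replicate 1). These 3 raffinose synthase copies were listed by the sheet for their rise in shoots, so their shared shoot change was fixed by that selection. Their root changes differed in direction.

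The other carbohydrate genes acted on sucrose, starch and trehalose phosphate. A neutral invertase gene (Csa01g007540), which splits sucrose, had 75, 37 and 74 CPM in salt-treated shoots, against 16, 18 and 17 CPM in control shoots. AtSS2 (Csa19g003420), a starch synthase, had 59, 37 and 42 CPM in salt-treated shoots, against 12, 13 and 16 CPM in control shoots. TPS6 (Csa07g033670), a trehalose phosphate synthase family gene, had 22, 13 and 22 CPM in salt-treated shoots, against 6, 5 and 6 CPM in control shoots. Root ratios were 1.16, 1.28 and 1.36 for these genes in that order. The second TPS6 copy, Csa05g083350, had a shoot ratio of 4.0 and a root ratio of 1.47 and missed the group only because its control shoot mean was 3.67 CPM. Over the 37 carbohydrate and respiration genes of the shoot sheet that were tested, 5 were in the group and 7 were called up in roots.

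**Figure D4:**
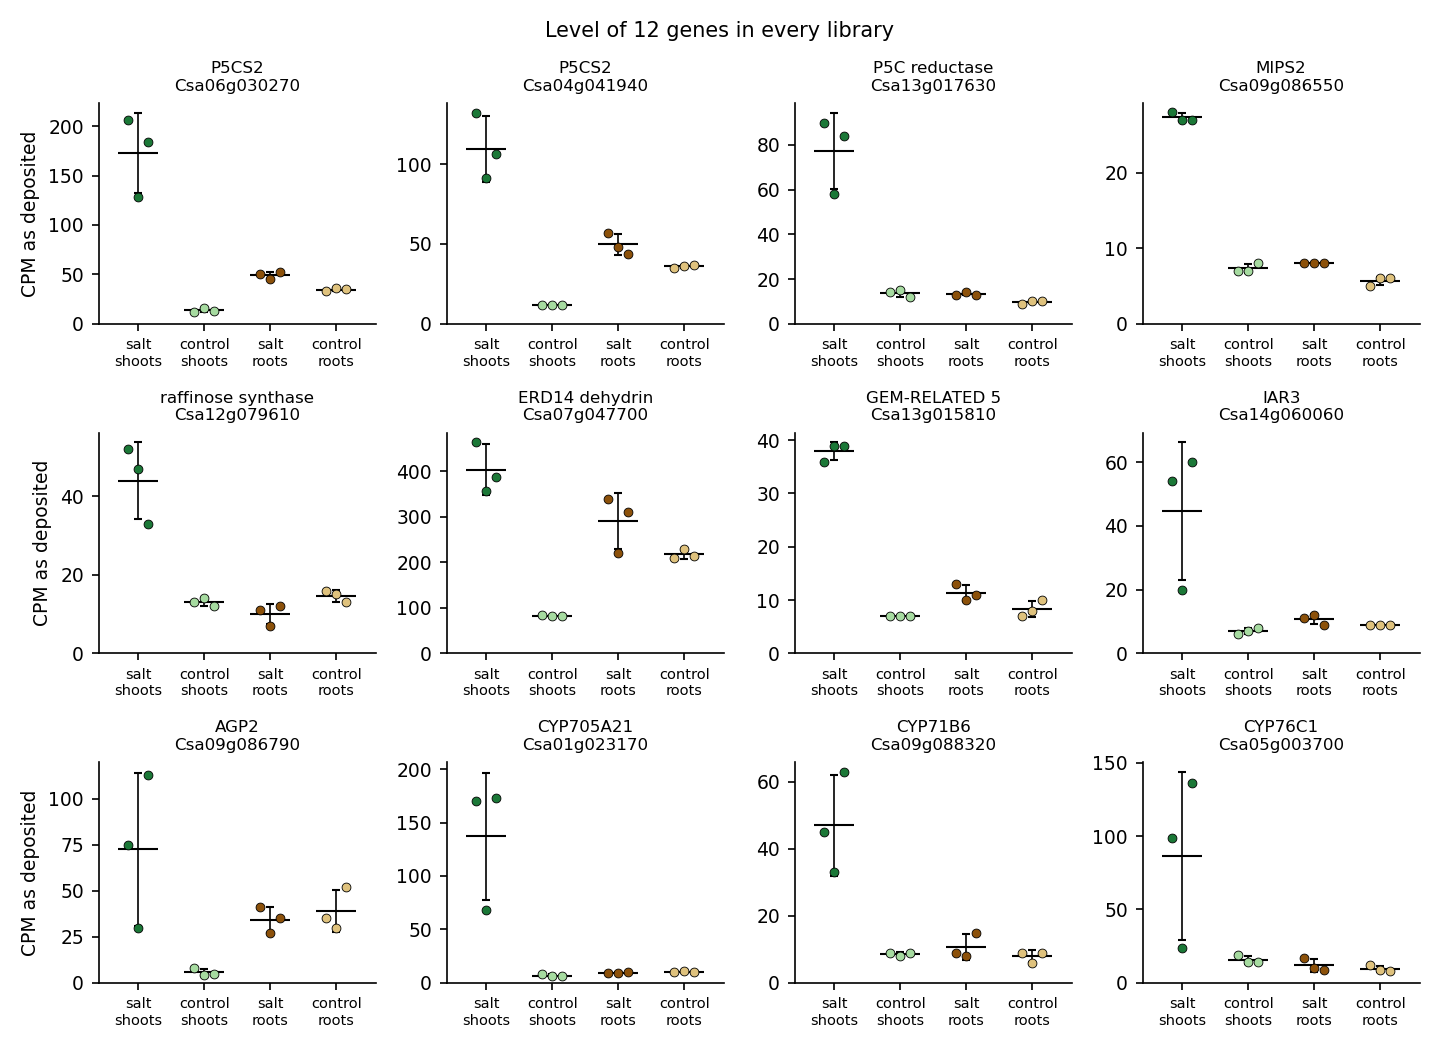
CPM of 12 of the 155 genes in every library of the 4 groups, with each dot 1 library, the horizontal bar the group mean and the error bar 1 SD (n = 3). Each panel shows the mean of salt-treated shoots above the means of the 3 other groups, by a wide margin in P5CS2 (128 to 206 CPM in Csa06g030270). Replicate 2 is low in AGP2, IAR3 and the cytochromes, and in AGP2 (30 CPM) it lies within the range of both root groups.

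ERD14 (Csa07g047700), a dehydrin, had the highest mean of the 155 genes in salt-treated shoots. It had 465, 356 and 388 CPM in salt-treated shoots, against 83, 81 and 81 CPM in control shoots (ratio 4.93). In roots it had 340, 221 and 311 CPM with salt, against 209, 229 and 214 CPM without. Root groups overlapped through replicate 2. Control roots held 2.66 times the level of control shoots (limma adjusted p = 5.7e-06), in a contrast that shares the control libraries with the rule. A low control shoot mean helps a gene to enter the group, so this p is a description. With salt, shoots overtook roots by a ratio of 1.39, a turn that the rule in part favours. It was the only gene of the 155 among 45 tested abiotic stress genes of the shoot sheet. Of these 45 genes, 17 were called up in roots, beside 106 of the 489 tested genes of that sheet and 8.22% of all genes.

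Hormone-related genes were led by a pair of GEM-RELATED 5 genes, which encode GRAM domain proteins and are classed as ABA-responsive. Csa13g015810 had 36, 39 and 39 CPM in salt-treated shoots, against 7 CPM in each control shoot library (ratio 5.43), and 13, 10 and 11 CPM in salt-treated roots, against 7, 8 and 10 CPM in control roots. Csa20g018560 had 43, 43 and 61 CPM in salt-treated shoots, against 16, 14 and 13 CPM in control shoots (ratio 3.42), and 13, 14 and 12 CPM in salt-treated roots, against 9, 9 and 8 CPM in control roots. Its root ratio of 1.5 lies on the limit, and its root groups did not overlap, so it was among the least steady of the 155 genes in roots. These were the only 2 of 25 ABA genes named in the study's text that belonged to the group. Of the 25 genes, 22 were called up in shoots and 22 in roots, with medians of 1.94 in shoots and 2.08 in roots on the log2 scale, against log2 root changes of 0.43 ± 0.13 and 0.56 ± 0.14 (SE) for the GEM-RELATED 5 pair. That list was compiled from these samples by the study, and its share of calls is no independent measure of the pathway.

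A pair of IAR3 genes, which encode an amidohydrolase that in Arabidopsis frees auxin from its amino acid conjugates, was also present. Csa14g060060 had 54, 20 and 60 CPM in salt-treated shoots, against 6, 7 and 8 CPM in control shoots (ratio 6.38), and Csa03g058740 had 51, 23 and 51 CPM against 9, 15 and 10 CPM (ratio 3.68). In roots the pair had ratios of 1.19 and 1.26. Replicate 2 was under 0.5 times the other salt-treated shoot libraries in both copies. None of the 8 tested auxin genes named in the study's text was in the group, and 5 of those were called up in roots and 3 down, beside 8.22% and 7.85% of all genes. The study compiled this list from these samples, as it did its ethylene and jasmonate lists.

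ERF4 (Csa01g017750), an ethylene response factor that in Arabidopsis represses its targets, had 42, 27 and 31 CPM in salt-treated shoots, against 11, 10 and 9 CPM in control shoots, and 22, 21 and 21 CPM in salt-treated roots, against 16, 23 and 29 CPM in control roots. Its root ratio was 0.94 and its control roots held 2.27 times the level of control shoots. The other copy, Csa15g019690, had a shoot ratio of 3.83 and a root ratio of 1.08, and its control shoot mean of 4.0 CPM kept it out. A gibberellin-regulated gene, Csa20g021420, was shoot-biased throughout, with 123, 172 and 204 CPM in salt-treated shoots, against 53, 45 and 36 CPM in control shoots, and 24, 18 and 17 CPM in salt-treated roots, against 14, 11 and 23 CPM in control roots. It was one of the genes in which replicate 2 was not the lowest salt-treated shoot library. Of 24 tested ethylene genes from the study's text 0 were in the group, and of 6 jasmonate genes 0 were.

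Cell wall genes gave the third largest shoot ratio. AGP2 (Csa09g086790) encodes an arabinogalactan protein, a heavily glycosylated protein of the cell surface. It had 75, 30 and 113 CPM in salt-treated shoots, against 8, 4 and 5 CPM in control shoots (ratio 12.8), and 41, 27 and 35 CPM in salt-treated roots, against 35, 30 and 52 CPM in control roots (ratio 0.88). The replicates spread widely in salt-treated shoots (72.7 ± 41.6 CPM, SD), yet the lowest was above the highest control. Control roots held 6.88 times the level of control shoots. Another copy, Csa16g044220, had 28, 13 and 44 CPM in salt-treated shoots, against 3, 3 and 2 CPM in control shoots. In roots that copy had 38, 23 and 27 CPM with salt, against 20, 19 and 30 CPM in controls. It fell short only on its control shoot mean of 2.67 CPM. The study's text names a further AGP2 gene, Csa07g052560, as raised in shoots and lowered in roots, and its values are not given here.

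The pectin genes were a pectin methylesterase pair and PGIP1, an inhibitor of the polygalacturonases with which fungi break down pectin. Csa04g022370 had 81, 54 and 110 CPM in salt-treated shoots, against 20, 23 and 17 CPM in control shoots, and Csa06g015350 had 58, 31 and 70 CPM against 13, 13 and 10 CPM. The pair differed in roots, where the ratio was 1.48 for Csa04g022370 and 1.00 for Csa06g015350. PGIP1 (Csa13g008880) had 46, 21 and 39 CPM in salt-treated shoots, against 7, 8 and 8 CPM in control shoots, and equal root means of 14.3 CPM with and without salt. Of 20 tested cell wall genes of the shoot sheet 4 were in the group, and 2 were called up in roots.

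Lipid genes in the group were AAE1 (Csa17g026370), an acyl activating enzyme, a second acyl activating enzyme-like gene and phospholipase Dδ, which cleaves membrane phospholipids to phosphatidic acid. AAE1 had 144, 74 and 117 CPM in salt-treated shoots, against 28, 30 and 27 CPM in control shoots, with a root ratio of 1.31. The second gene, Csa19g035480, was low, with 22, 12 and 24 CPM in salt-treated shoots, against 5, 4 and 6 CPM in control shoots. Phospholipase Dδ (Csa10g006270) had 45, 33 and 45 CPM in salt-treated shoots, against 12, 13 and 7 CPM in control shoots, and 34, 31 and 30 CPM in salt-treated roots, against 20, 21 and 25 CPM in control roots. Its other copy, Csa11g005910, was more abundant, with 78, 58 and 82 CPM in salt-treated shoots, against 23, 24 and 20 CPM in control shoots, and missed the band with a root ratio of 1.57.

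Cytochromes P450, the oxygenases of much of plant specialised metabolism, gave 5 genes and the largest named shoot ratio. CYP705A21 (Csa01g023170) had 170, 68 and 173 CPM in salt-treated shoots, against 8, 6 and 6 CPM in control shoots (ratio 20.6), and 9, 9 and 10 CPM in salt-treated roots, against 10, 11 and 10 CPM in control roots. Its level in salt-treated shoots was 14.7 times that in salt-treated roots, so a gene that was low everywhere without salt was high only in shoots with it. Its difference between the salt effects (shoots minus roots) was 4.29 ± 0.40 (SE) on the log2 scale.

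A pair of CYP71B6 genes had smaller changes. Csa09g088320 had 45, 33 and 63 CPM in salt-treated shoots, against 9, 8 and 9 CPM in control shoots, and Csa16g045800 had 32, 21 and 53 CPM against 10, 9 and 12 CPM. Root ratios were 1.33 and 1.26. CYP72A13 (Csa15g019020) had 29, 13 and 32 CPM in salt-treated shoots, against 6, 5 and 4 CPM in control shoots, and its root replicates spread with salt (11, 8 and 20 CPM, against 10, 9 and 9 CPM in control roots). The other CYP72A13 copy, Csa19g021310, had a root ratio of 1.70. CYP76C1 (Csa05g003700) had 99, 24 and 136 CPM in salt-treated shoots, against 19, 14 and 14 CPM in control shoots, the widest relative spread of the annotated genes, and its difference between the salt effects was called only without salt-treated shoot replicate 2 (1.85 ± 0.71 SE with all libraries, 2.60 ± 0.37 without it). Of 43 tested cytochrome P450 genes of the shoot sheet, 6 were called up in roots and 1 down, beside 8.22% and 7.85% of all genes. Over the 489 tested genes of that sheet, 106 were called up in roots and 5 down.

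Enzymes that act on glucans and glycosides formed a further set. A pair of genes for family 81 glycosyl hydrolases, classed with biotic stress, were root genes in controls. Csa08g008030 had 30, 20 and 39 CPM in salt-treated shoots, against 8, 6 and 7 CPM in control shoots, and 25, 19 and 25 CPM in salt-treated roots, against 17, 18 and 18 CPM in control roots. Csa13g018690 had 24, 14 and 29 CPM in salt-treated shoots, against 6, 6 and 7 CPM in control shoots, and 28, 27 and 27 CPM in salt-treated roots, against 17, 19 and 20 CPM in control roots. Every salt-treated root was above every control root in both. In Csa13g018690 roots kept the higher mean with salt, though salt-treated shoot and root libraries overlapped. A β-1,3-glucanase-like gene, Csa05g041420, had 24, 19 and 25 CPM in salt-treated shoots, against 6, 7 and 5 CPM in control shoots, with a root ratio of 0.78.

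The β-glucosidases BGLU40 (Csa17g034350) and beta glucosidase 16 (Csa05g091880) also kept the higher mean in roots under salt. In both, salt-treated shoot and root libraries overlapped, and replicate 2 was the lowest salt-treated shoot library. BGLU40 had 19, 14 and 27 CPM in salt-treated shoots, against 5, 6 and 7 CPM in control shoots, and 26, 28 and 23 CPM in salt-treated roots, against 23, 26 and 15 CPM in control roots. Beta glucosidase 16 had 50, 20 and 49 CPM in salt-treated shoots, against 10, 9 and 13 CPM in control shoots, and 60, 40 and 42 CPM in salt-treated roots, against 27, 31 and 37 CPM in control roots. Its root ratio of 1.49 was the third nearest to the upper limit. With the replicate number as a block its difference between the salt effects was called (1.19 ± 0.37 SE), and without the block it was not (1.19 ± 0.43).

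Transferases, hydrolases and cofactor genes completed the named set. A pair of glycosyltransferase genes of the Core-2/I-branching family differed in size, with 113, 53 and 106 CPM in salt-treated shoots for Csa19g022050, against 16, 16 and 17 CPM in control shoots, and 40, 28 and 42 CPM for Csa01g017880, against 10, 11 and 12 CPM. Root ratios were 1.30 and 1.31. UGT74D1 (Csa05g029410), which in Arabidopsis glucosylates auxins, had 26, 23 and 29 CPM in salt-treated shoots, against 9, 8 and 7 CPM in control shoots, and a root ratio of 1.05. MES4 (Csa16g045290), a methyl esterase, had 74, 36 and 56 CPM in salt-treated shoots, against 11, 12 and 10 CPM in control shoots, and a root ratio of 0.92.

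The other copy matched to the MES4 gene of Arabidopsis, Csa09g087810, is named methyl esterase 6 by the same annotation. It had 65, 46 and 54 CPM in salt-treated shoots, against 14, 17 and 16 CPM in control shoots. In roots it had 133, 106 and 93 CPM with salt, against 43, 48 and 52 CPM in controls. Its log2 change in roots was 1.20 ± 0.15 (SE), the value that kept it out of the group. It was the one copy among 15 in which the difference between the salt effects was not called.

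An acyltransferase gene of the HXXXD family (Csa04g054160), classed with flavonoid metabolism, had 25, 17 and 30 CPM in salt-treated shoots, against 5, 5 and 6 CPM in control shoots, and 19, 14 and 24 CPM in salt-treated roots, against 26, 22 and 26 CPM in control roots. PAP23 (Csa12g061750), a purple acid phosphatase, had 44, 27 and 56 CPM in salt-treated shoots, against 11, 9 and 10 CPM in control shoots. RNS2 (Csa05g013240), a ribonuclease of the vacuole, had 47, 24 and 37 CPM in salt-treated shoots, against 10, 11 and 11 CPM in control shoots. NAPRT2 (Csa09g087690), an enzyme of NAD salvage, had 24, 17 and 28 CPM in salt-treated shoots, against 6, 7 and 8 CPM in control shoots. The DOF zinc finger gene ADOF1 (Csa17g090650) and ERF4 were the only named transcription factors, and ADOF1 had 22, 13 and 25 CPM in salt-treated shoots, against 7, 5 and 5 CPM in control shoots. Root ratios lay between 0.77 for the acyltransferase and 1.44 for PAP23.

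Copies outside the group showed which condition divided them. For 14 of the 36 Arabidopsis genes the sheet gave 15 further copies, and all 15 had a shoot ratio of 3 or more and were called up in shoots. The sheet holds genes selected for their rise in shoots, and 484 of its 489 tested genes were called up there. A control shoot mean under 5 CPM was among the reasons for 8 of them and a root ratio above 1.5 for 7. Of the 15, 2 were called up in roots, Csa10g047220 (not without salt-treated root replicate 1) and Csa09g087810. Both had a root ratio above 1.5, and Csa10g047220 also had a control shoot mean under 5 CPM. The difference between the salt effects was called in 14, one of them the phospholipase Dδ copy Csa11g005910, whose difference was 1.03 here but 0.99 under median-of-ratios scaling and 0.87 under quantile normalization, where it was not called. Copies of one Arabidopsis gene are similar in sequence, and no source at hand states how reads that fit several copies were assigned, so the split between copies is uncertain.

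**Figure D5:**
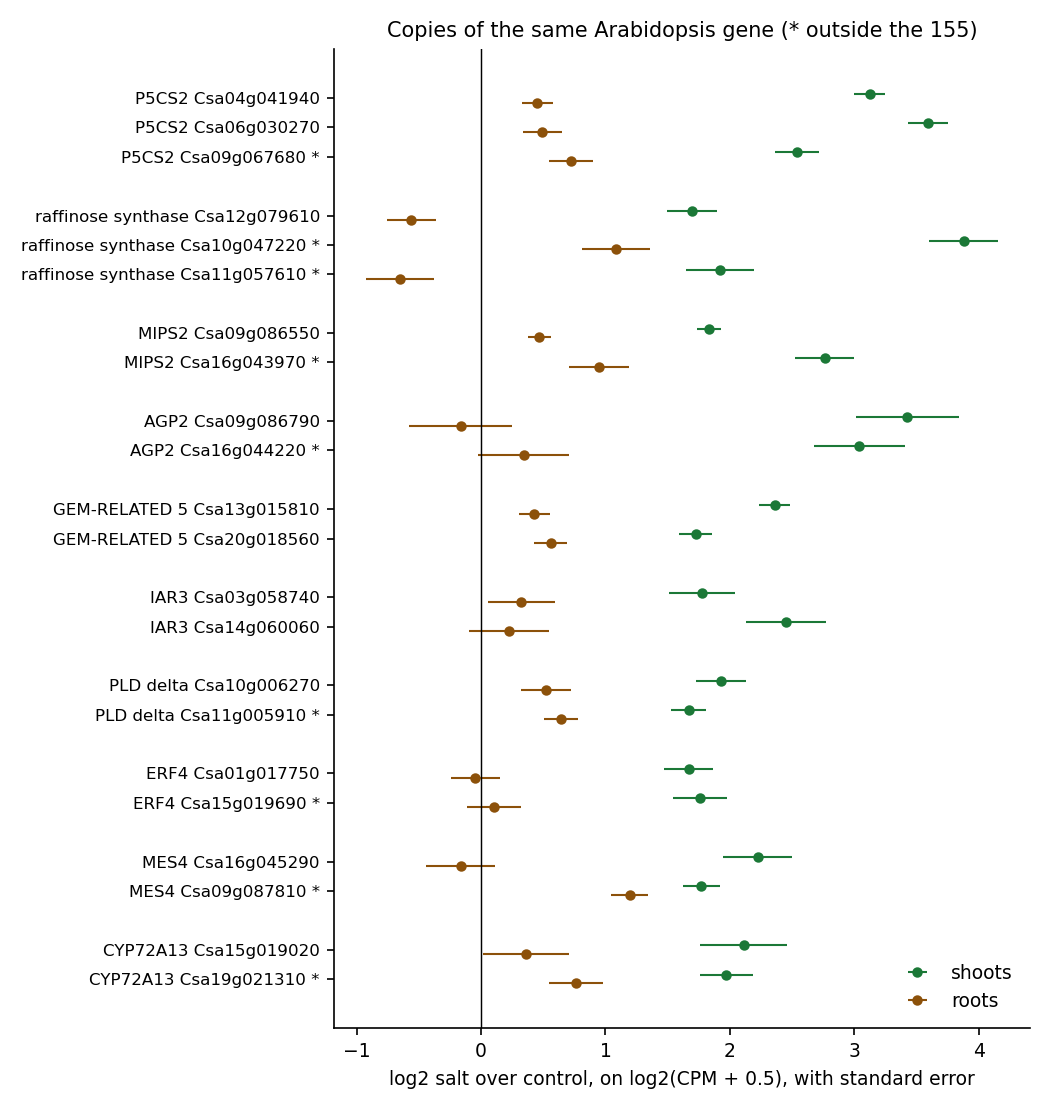
Log2 change with salt in shoots (green) and roots (brown), with standard errors, for copies of 10 Arabidopsis genes, where an asterisk marks copies outside the 155 genes. The shoot changes of copies differ most in raffinose synthase, and the root changes of raffinose synthase and MES4 part between copies.

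Of the 111 unnamed genes the strongest was Csa13g028520, with 133, 47 and 192 CPM in salt-treated shoots, against 6, 7 and 5 CPM in control shoots (ratio 20.7), and 55, 62 and 53 CPM in salt-treated roots, against 33, 45 and 49 CPM in control roots. Csa05g089660 had 120, 55 and 153 CPM in salt-treated shoots, against 11, 10 and 9 CPM in control shoots (ratio 10.9), and 7, 8 and 13 CPM in salt-treated roots, against 9 CPM in each control root library. Csa13g028520 thus resembled AGP2 in its control root level, and Csa05g089660 resembled CYP705A21 in being low in all but salt-treated shoots. The 10 largest shoot ratios, from 20.7 to 7.72, belonged to 4 named genes and 6 unnamed ones. The median shoot ratio was 3.90 over the 44 named genes and 3.50 over the 111 unnamed ones.

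The gene IDs carry the chromosome and the order along it. The 155 genes lay on all 20 chromosomes, with 1 on an unplaced scaffold, and made up between 3.06 per 1000 (chromosome 17) and 8.99 per 1000 (chromosome 1) of the genes with at least 5 CPM in both control organs, against 5.60 per 1000 overall. There were 0 pairs with consecutive IDs and 1 pair next to each other among the genes in the table (Csa01g004880 and Csa01g004900, identified after the values were seen). The 109 other genes with consecutive IDs beside one of the 155, and with at least 5 CPM in both control organs, had a median shoot ratio of 1.04, and 3 of them (2.75%) reached 3, against 2.46% of the 27688 genes.

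At the limits of the rule the values ran on without a gap. The 3 genes nearest the shoot limit from inside all had a ratio of exactly 3.00, and the nearest from outside had 2.96, 2.97 and 2.98. At the upper root limit beta glucosidase 16 had 1.49, and GEM-RELATED 5 (Csa20g018560) and an unnamed gene had exactly 1.5, while outside it an unnamed gene had 1.503, a cytochrome P450 gene (Csa12g022940) had 1.504 and acyl-CoA oxidase 1 (Csa10g028750), an enzyme of fatty acid β-oxidation, had 1.51. The last had a mean of 133 CPM in salt-treated shoots, against 31.3 CPM in control shoots, and 51.3 CPM in salt-treated roots, against 34.0 CPM in control roots. At the lower root limit raffinose synthase Csa12g079610 at 0.68 stood inside and Csa11g057610 at 0.64 outside. Among genes kept out by a low control root mean alone were aldehyde dehydrogenase 3F1 (Csa12g005150), with 44.3 CPM in salt-treated shoots, 7.33 CPM in control shoots, 5.67 CPM in salt-treated roots and 4.67 CPM in control roots, and nudix hydrolase homolog 2 (Csa18g002160), with 22.7 CPM in salt-treated shoots, 7.0 CPM in control shoots, 5.0 CPM in salt-treated roots and 4.33 CPM in control roots. A Rossmann-fold protein gene (Csa17g045970) was kept out by a control shoot mean of 4.67 CPM.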

How the data were processed

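RNA from roots and whole shoots of 28-day-old DH55 plants was sequenced in 12 libraries, 3 independent biological replicates in each of 4 groups. Per the study's methods, the authors used Trimmomatic for trimming, STAR for alignment to the camelina genome, CPM scaling and a further DESeq normalization. The deposited values were rounded to whole numbers and are treated as a score, called CPM here, so counts and depth are unknown and no count model was used. No deposited column was left out.

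Genes with at least 1 CPM in at least 3 libraries (49928 of 49932) were fitted on log2(CPM + 0.5) in one model of the 4 groups with limma 3.58.1 (R 4.3.3), with a trend in the prior variance and Benjamini-Hochberg adjustment over all genes. Calls needed an adjusted p no higher than 0.05 and a log2 change beyond 1 either way, the limits of the study. Such changes understate those of low genes. Contrasts were salt minus control in each organ, their difference, and control roots minus control shoots. The members and gene lists were chosen with earlier results of these data known, so for contrasts that the rule used no p of a single gene is given, and counts of genes that passed are descriptions.

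Named genes are those annotated by the study's sheets, in pairs that share an Arabidopsis gene or up to 5 a function by level, the 10 largest shoot ratios, genes at the limits of the rule, and other copies. Of IDs with no name only 2 are given by this rule, and 4 more are marked as chosen after their values were seen. Names, the Arabidopsis match and function classes come from the study's supplementary annotation. The reference table at hand did not pair these IDs with names, promoters or proteins, so sequences, coordinates and the planned promoter motifs are not reported here. Replicate numbers did not pair salt-treated with control libraries (correlations of deviations from group means, -0.18 to 0.29 over 6 pairs), while same-numbered shoots and roots correlated at 0.10 to 0.39 in each of 6 pairs, so the replicate number was a block in an alternative fit. Other alternatives changed the pseudocount, filter, scaling, variance moderation, limits of the rule and libraries used.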

Additional observations from a re-analysis of the deposited data

Results flagged for a closer look

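The salt effect differed between shoots and roots by limma's test of the difference in 140 of the 155 genes, with the larger effect in shoots in each. This was flagged as a difference between organs under the same contrast, and it follows from a rule that asked for a high shoot ratio and a root ratio near 1. The share over all genes tested was 6.25%.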

How the results depend on the processing

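The number of genes found by the rule depended on its limits: 631 with a shoot ratio of 2 or more, 55 with 4 or more, 62 with a narrower root band, 317 with control means of 2 CPM or more and 63 with 10 CPM or more. It was 204 with medians, 149 with equal totals, 136 with median-of-ratios scaling and 118 with quantile normalization, of which 137, 139, 136 and 113 were among the 155. Leaving out 1 library gave 119 to 206. With the replicate block, 155 genes were called in shoots, 0 in roots, 141 for the difference between the salt effects and 59 between control organs, so the pairing moved none of these counts by more than 1.5 times. Over all alternatives, calls in shoots numbered 151 to 155, in roots 0, for the difference 125 to 155, and between control organs 56 to 64. Among named genes, 0 effects reversed, and the difference of CYP71B6 (Csa16g045800) and CYP72A13 (Csa15g019020) was lost in 8 of the 12 fits that left out 1 library, for each gene. That of the phospholipase Dδ copy Csa11g005910 was lost in 5 of the 12, and at 0.99 with median-of-ratios scaling and 0.87 with quantile normalization. The cause was not tested. Values are whole numbers and 78 of the 155 genes have a control shoot mean under 10 CPM, so ratios move in visible steps, and the depth is unknown.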
